A study of Mus musculus with 5 samples.

Results

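Paneth cells sit at the base of the crypts of the small intestine and release granules of antimicrobial protein into the crypt lumen. The 9 genes described here were grouped as Paneth antimicrobial genes of the mouse: Lyz1, Mmp7, Itln1, Ang4, Mptx1, Mptx2, Defa17, Defa24 and Defa42. They were chosen by name, with earlier results of these data known. All 9 were found among the 22042 genes of the bulk table and the 27998 genes of the droplet matrix. In that matrix Defa42 carries its older symbol Gm7849 and was matched by its Ensembl identifier. The study asked which enteroendocrine cells (EECs), the hormone-secreting cells of the gut, drive food reward and aversion. Its droplet library holds cells of the small intestine from 4 C57Bl/6J mice aged 6 weeks, untreated and pooled, that carried Neurog3-Cre and R26-LSL-tdTomato and were sorted for the reporter. Neurog3-Cre is active in endocrine progenitors, so the reporter stays on in their descendants. The bulk libraries came from 6 C57Bl/6J mice aged 6 to 8 weeks with Cck-Cre and R26-LSL-tdTomato, in which the Cck gene drives Cre and any cell that ever used Cck stays labeled. The 12 libraries form 6 pairs of labeled (CCK+) and unlabeled (CCK-) epithelial cells, and the pairs share a letter, A to F, that is read here as the mouse. Mice A, B and F had an overnight fast, and for mice C, D and E the fast ended with a meal of Ensure, a liquid diet. This makes 4 groups of 3 libraries.

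The products act in different ways. Lyz1 encodes the Paneth lysozyme, which cuts bacterial cell walls, and Mmp7 encodes matrilysin, the protease that activates the precursors of mouse alpha-defensins. Defa17, Defa24 and Defa42 encode alpha-defensins, small peptides that disrupt microbial membranes. Ang4 encodes an angiogenin of the ribonuclease family with microbicidal activity, and Itln1 encodes intelectin, a lectin that binds microbial sugars. Mptx1 and Mptx2 encode mucosal pentraxins, relatives of the acute-phase proteins that bind microbial surfaces. Goblet cells, the mucus-secreting neighbors of Paneth cells, share a secretory progenitor with them.

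In the droplet library, 9451 barcodes were taken as cells, each with over 1000 genes and with mitochondrial genes at less than 10% of its unique molecular identifiers (UMIs). The deposited matrix holds all barcodes, and these cells are more than the paper kept under the same limits. They were grouped by 4 criteria: at least 2 Mmp7 UMIs, or per 10000 UMIs at least 500 of Zg16 (a goblet lectin), 500 of Cck (the EEC hormone cholecystokinin) or 10 of Tph1 (the serotonin enzyme of enterochromaffin cells). The Mmp7 criterion was met by 1099 cells, of which 69.2% also met the Zg16 criterion. Cells that met only 1 criterion were used as the groups, and the 716 cells that met Mmp7 and Zg16 alone were kept apart. The Mmp7 cells numbered 302, with a median of 18905 UMIs. The Zg16 cells numbered 3259 (median 6525 UMIs), the Cck cells 853 (6119 UMIs) and the Tph1 cells 2024 (3017.5 UMIs). Free RNA was read from 410487 barcodes of 1 to 100 UMIs, which held 2007644 UMIs together. This is 1 library without replicates, so no test was made, and the 95% intervals (Poisson for levels, Clopper-Pearson for shares, exact conditional for ratios) cover counting error only. In the bulk libraries, which sum to 7061155 to 11371114 normalized counts, Cck was 14837 to 32592 in CCK+ and 27.6 to 86.0 in CCK-, as labeled.

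The 9 genes lie on 5 chromosomes of GRCm38, by the GENCODE M21 annotation. Itln1 (chr1:171518122-171535294, minus strand), Mptx2 (chr1:173274382-173277777, minus) and Mptx1 (chr1:174330518-174332873, plus) share chromosome 1. Mmp7 lies at chr9:7692090-7699585 (plus), Lyz1 at chr10:117287797-117292868 (minus) and Ang4 at chr14:51763878-51773590 (minus). The alpha-defensins form a cluster on chromosome 8 that runs from 21025545 to 21735471 and holds all 27 alpha-defensin genes of the bulk table that the annotation lists. Within it lie Defa42 (chr8:21455445-21456560, minus), Defa17 (chr8:21655780-21656735, plus) and Defa24 (chr8:21734494-21735471, plus). Reads from such copies are hard to assign. Of the 31-base windows of its longest transcript, Defa42 shares 100% with other genes (all with Defa43), Defa17 93.2% and Defa24 57.1%, so the values of these 3 genes are uncertain between copies. Lyz1 shares 34.2% of its windows with Lyz2, the lysozyme of macrophages, and 34.4% in its last 300 bases, the end that droplet reads cover. Mptx2 shares 25.1% of its windows with Mptx1 but none in the last 300 bases. Mmp7 shares none and Itln1 3.87%. Ang4 shares 13.8% with other genes, and 31.1% in its last 300 bases. The droplet levels of Lyz1 and Ang4 are uncertain to that extent.

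Lyz1, Itln1, Mptx2 and the alpha-defensins were much higher in Mmp7 cells than in the other groups. Together the 8 genes other than Mmp7 took 3301 of every 10000 UMIs in Mmp7 cells (95% interval 3296 to 3305), against 149 in Zg16, 47.2 in Tph1 and 34.5 in Cck cells. Defa24 alone took 2301 (2297 to 2304), which is 69.4% of the UMIs of the 9 genes there. Lyz1 followed with 355 UMIs per 10000 and Itln1 with 330. Defa17 stood at 114, Ang4 at 108 and Mptx2 at 92.2. Mmp7 itself, which chose the group, was at 12.9, and Defa42 was the rarest alpha-defensin of the 3, at 1.37. Mptx1 was the exception, at 0.285 (0.245 to 0.328), below its level in Zg16 cells on this scale. A UMI of Defa24 was found in 100% of the Mmp7 cells, of Lyz1 and Itln1 in 99.3% each, of Mptx2 in 79.1%, of Defa42 in 61.9% and of Mptx1 in 14.6%.

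**Figure D1:**
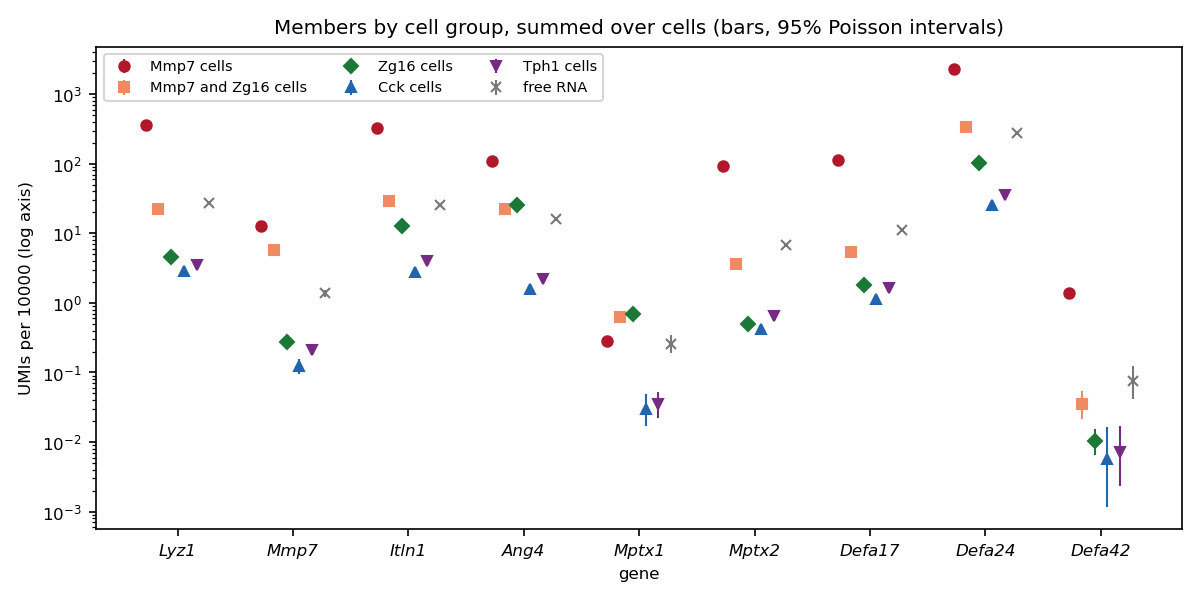
UMIs per 10000 UMIs (log axis) of each gene, summed over the cells of each group and over free RNA; bars are 95% Poisson intervals. Of the 8 genes other than Mmp7, which chose the Mmp7 cells, all but Mptx1 are highest in these cells. On this scale, per UMI, Mptx1 is highest in the Zg16 cells, at 0.684 against 0.285.

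The same transcripts were present in free RNA, and their presence in EEC groups has to be read against it. Free RNA held 368 UMIs per 10000 of the 8 genes other than Mmp7, with 280 (278 to 283) of Defa24, 27.7 of Lyz1 and 25.8 of Itln1. At least 1 Defa24 UMI was found in 853 of 853 Cck cells and in 2023 of 2024 Tph1 cells, and Lyz1 in 78.3 and 64.7% of them. Mmp7 is left out here, since the rule kept cells with 2 or more of its UMIs out of these groups. In Cck cells each of the other 8 genes stood at 0.0629 to 0.116 times its level in free RNA, so that the highest and lowest ratios differed by 1.84 times. In Tph1 cells the ratios ran from 0.0973 to 0.157, a spread of 1.61 times. Defa24 made up 74.2% of the UMIs of the 9 genes in Cck cells, 74.0% in Tph1 cells and 75.9% in free RNA. Its share was 69.4% in Mmp7 and 69.2% in Zg16 cells, so this share tells the groups apart poorly. Whether the levels in Cck and Tph1 cells come from free RNA or from expression was not tested.

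Zg16 cells departed from this constant ratio. The ratios of these 8 genes to free RNA ran from 0.0733 for Mptx2 to 2.64 for Mptx1, a spread of 36.0 times, and 2 genes exceeded free RNA. Ang4 was at 25.6 UMIs per 10000 (25.4 to 25.8), 1.58 times its free RNA level (1.53 to 1.64), 14.9 to 17.1 times its level in Cck cells and 11.5 times that in Tph1 cells (10.9 to 12.1). The Mmp7 cells held 4.22 times more Ang4 than the Zg16 cells did (4.18 to 4.27). Itln1 came to 0.491 times and Defa24 to 0.370 times free RNA, above the ratios of Lyz1 (0.165) and Defa17 (0.163). Ang4 made up 17.1% of the UMIs of the 9 genes in Zg16 cells, against 4.38% in free RNA, 4.63% in Cck cells and 4.71% in Tph1 cells. The share of cells with an Ang4 UMI, after each cell was thinned to 2000 UMIs, was 59.8% in Zg16, 23.6% in Cck and 28.7% in Tph1 cells (80.3, 54.4 and 41.9% without thinning). No Zg16, Cck or Mmp7 cell held fewer than 2000 UMIs, and 58 Tph1 cells that did were left out. For Lyz1 the thinned shares were 48.3, 40.6 and 48.8%, so that Zg16 cells exceeded Cck but not Tph1 cells. The Lyz1 level in Zg16 cells was 1.61 times that in Cck cells (1.52 to 1.7). It was 1.31 times that in Tph1 cells (1.25 to 1.37), smaller ratios than those of Ang4.

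**Figure D2:**
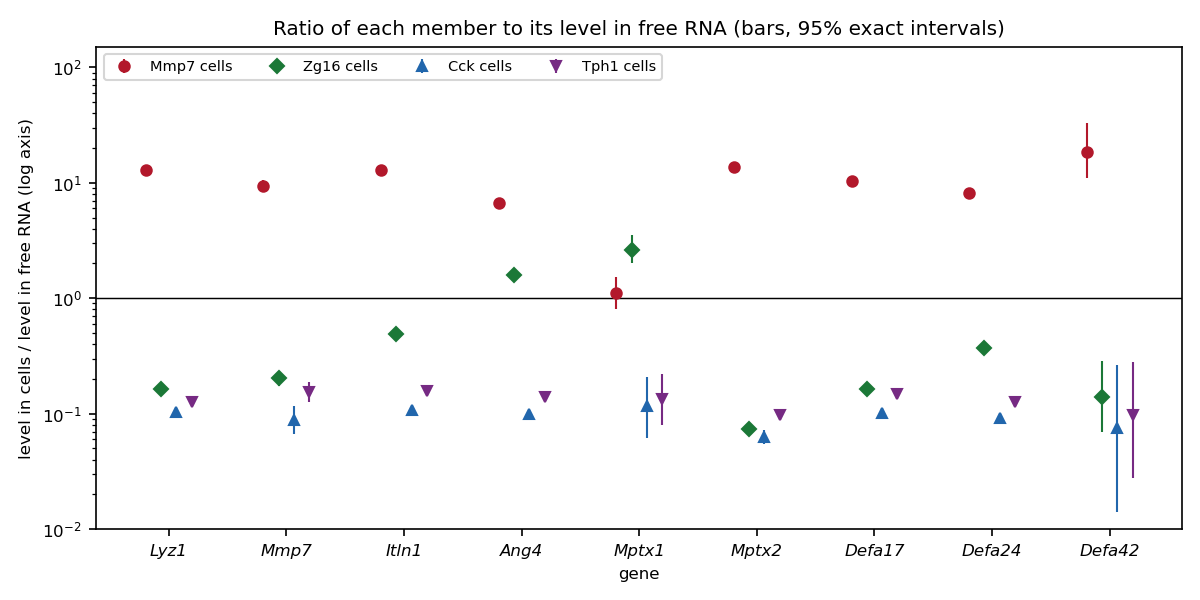
Level of each gene in 4 cell groups divided by its level in free RNA (log axis; the line marks equal levels); bars are 95% exact intervals. The Cck and Tph1 cells keep near 1 ratio for the 8 genes other than Mmp7, from 0.0629 to 0.157, whereas in Zg16 cells Ang4 (1.58) and Mptx1 (2.64) lie above free RNA.

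Ang4 was uneven over the Zg16 cells. It exceeded its free RNA level in 1012 of the 3259 Zg16 cells (31.1%), and the 163 cells with the most Ang4 held 41.0% of its UMIs. The free RNA level is a strict limit: it was 16.2 UMIs per 10000 for Ang4, against 1.6 in Cck and 2.23 in Tph1 cells. Cells below it can still hold more than those groups. The median Zg16 cell had 4.44 Ang4 UMIs per 10000, the cell at the 95th percentile 127 and the highest 603. Itln1 exceeded its free RNA level in 399 Zg16 cells (12.2%) and Defa24 in 276 (8.47%), whereas Lyz1 did so in 47 (1.44%) and Mptx2 in 16 (0.491%). Over the Zg16 cells, Spearman's rho was 0.44 between Ang4 and Itln1, 0.42 between Itln1 and Defa24 and 0.23 between Ang4 and Defa24 (n = 3259 cells of 1 library, which share its free RNA).

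The mucosal pentraxins, near relatives by sequence, differed in where they were found. Mptx2 followed the Paneth pattern, at 92.2 UMIs per 10000 in Mmp7 cells against 0.493 in Zg16, 0.658 in Tph1 and 0.423 in Cck cells, with 6.73 in free RNA. Mptx1 was at 0.684 (0.650 to 0.719) in Zg16 cells, 0.0349 in Tph1 and 0.0300 in Cck cells, with 0.259 in free RNA. The Mmp7 cells held 0.416 times the Mptx1 level of the Zg16 cells (0.355 to 0.484), and 1.10 times its free RNA level, an interval that spans equality (0.804 to 1.52). On this scale, and after thinning, Mptx1 in Mmp7 cells is lowered by the most abundant genes. There the 8 genes other than Mmp7 took 3301 UMIs per 10000 and the other alpha-defensins 2950. In counts, the 302 Mmp7 cells held 187 Mptx1 UMIs and the 3259 Zg16 cells 1528. The lower level thus holds per UMI. Per cell, a Mptx1 UMI was no rarer without thinning, in 14.6% of Mmp7 and 12.9% of Zg16 cells. The median depths of these groups were 18905 and 6525 UMIs. 1 Mmp7 cell held 87 of the 187 Mptx1 UMIs of its group. With the Zg16 and Cck limits at 250 per 10000, which left 262 cells in the Mmp7 group, its Mptx1 level was 0.130. In the Zg16 group, Mptx1 UMIs were found in 419 cells (12.9%), and 163 cells held 81.0% of them. The highest single cell had 151 Mptx1 UMIs. After thinning, 7.0% of Zg16 cells, 2.98% of Mmp7 cells, 0.814% of Tph1 cells and 0.469% of Cck cells had a Mptx1 UMI (12.9, 14.6, 1.19 and 1.76% without thinning).

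Because Mptx1 and Mptx2 differ so much between cell groups, the sequences before their starts are given here, 5′ to 3′ on the strand of the gene, from the RefSeq promoter table of GRCm38.p6. The windows are chr1:174330268-174330517 (plus strand) for Mptx1 and chr1:173277778-173278006 (minus strand) for Mptx2, each ending at the base before the annotated gene, and capitals mark the letters CTTTGA, the core bound by TCF/LEF factors of the Wnt pathway.
Mptx1: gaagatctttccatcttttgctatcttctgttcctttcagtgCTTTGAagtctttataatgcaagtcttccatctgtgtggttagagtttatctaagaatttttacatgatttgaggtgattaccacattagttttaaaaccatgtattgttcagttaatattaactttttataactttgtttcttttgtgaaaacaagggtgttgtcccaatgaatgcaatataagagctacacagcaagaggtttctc
Mptx2: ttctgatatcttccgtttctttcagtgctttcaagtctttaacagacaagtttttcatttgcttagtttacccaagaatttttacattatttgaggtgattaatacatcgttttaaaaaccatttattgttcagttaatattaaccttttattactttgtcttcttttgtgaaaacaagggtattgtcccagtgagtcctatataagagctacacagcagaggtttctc
An end-to-end alignment of the pair gave 202 identical columns of 252 (80.2%). CTTTGA, searched on both strands of the 250 bases before the start, occurred once in the Mptx1 window, at 208 to 203 bases before the start, and not in that of Mptx2. It was present in 13.8% of the 32851 windows of the table. Of the members, 7 had an entry. Lyz1, Itln1, Ang4 and Defa42 held no match, nor did the window at the first listed start of Mmp7; a second listed start inside the Mmp7 gene held 1. A match describes letters in a window and not a bound site.

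The Mmp7 group was itself uneven. Its cells ranged from 8.33 to 4181 Defa24 UMIs per 10000, with a quartile at 413 and a median of 2545. Lyz1 had a lower quartile of 15.7 and a median of 336, and it exceeded its free RNA level in 220 of the 302 cells (72.8%). Itln1 did so in 253 cells (83.8%), Ang4 in 239 (79.1%), Defa24 in 236 (78.1%) and Mptx2 in 192 (63.6%). Across these 302 cells of 1 library, the genes ranked together: Spearman's rho was 0.74 between Lyz1 and Itln1, 0.70 between Lyz1 and Mptx2, 0.70 between Defa17 and Defa24 and 0.69 between Lyz1 and Defa24. Depth moved with these levels, with rho of 0.14 (Mmp7) to 0.60 (Mptx2) between the level of a gene and the UMIs of the cell for the genes other than Mptx1 (0.02), and its part in the correlations was not tested. For Mptx1, rho with the other 8 lay between -0.11 and 0.05. Only 44 of the 302 cells held a Mptx1 UMI, and the many ties at 0 limit what rho can show for it.

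The limit of 2 Mmp7 UMIs did not separate 2 kinds of cell sharply. Of all 9451 cells, the 1102 with 1 Mmp7 UMI, just outside the limit, held 109 Defa24 and 5.19 Lyz1 UMIs per 10000. The 302 cells with exactly 2, just inside it, held 177 Defa24 and 9.30 Lyz1, and 86.1% of them met the Zg16 criterion. From 10 Mmp7 UMIs on, 297 cells with a median of 18457 UMIs held 2424 Defa24, 369 Lyz1 and 340 Itln1 per 10000, and 22.9% met the Zg16 criterion. Ang4 changed less over these classes, from 11.8 UMIs per 10000 in cells without Mmp7 to 111 in cells with 10 or more. Mptx1 went from 0.328 in cells without Mmp7 through 0.353, 0.452 and 0.493 to 0.981 in the cells with 5 to 9 Mmp7 UMIs, and was at 0.263 in those with 10 or more.

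**Figure D3:**
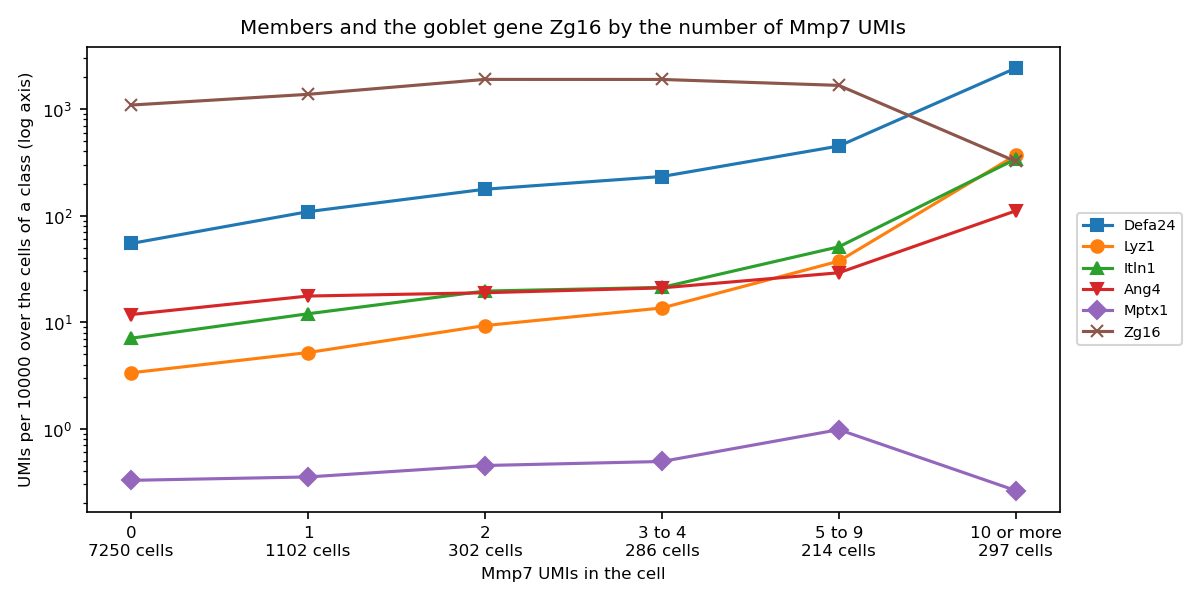
UMIs per 10000 (log axis) of 5 of the genes and of Zg16, summed over all cells with the given number of Mmp7 UMIs. Defa24 and Lyz1 climb to 2424 and 369 in the 297 cells with 10 or more Mmp7 UMIs, where Zg16 is at 323, whereas Zg16 is at 1900 in the 302 cells with 2 Mmp7 UMIs.

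The 716 cells that met both the Mmp7 and the Zg16 criterion were closer to the Zg16 cells than to the Mmp7 cells in the summed level. Their 8 genes other than Mmp7 summed to 421 UMIs per 10000, 2.82 times the Zg16 cells (2.80 to 2.83) and 0.128 times the Mmp7 cells (0.127 to 0.128). Mptx1 (0.637) and Ang4 (22.7) did not lie between the groups: their ratios to the Zg16 cells were 0.932, with an interval that spans equality (0.831 to 1.04), and 0.887, below both groups (0.870 to 0.903). Lyz1 was at 22.1 and Defa24 at 338, of which the 36 cells with the most held 73.1 and 52.8%. With a median of 8056 UMIs these cells were deeper than the Zg16 cells (6525), and the Mmp7 limit is a number of UMIs. Doublets were not called, and their part in this overlap was not tested.

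The other alpha-defensins followed the members in the droplet data. All 24 other alpha-defensin genes stood above free RNA in Mmp7 cells, where they summed to 2950 UMIs per 10000, against 21.3 in Zg16, 24.7 in Tph1, 17.8 in Cck cells and 241 in free RNA. For 3 of them (Defa25, Defa36 and Defa2), free RNA held no UMI and the Mmp7 cells held 20, 7 and 1, so these 3 say little. Defa30 (named Gm15284 in the matrix) was the highest of them, at 1256, followed by Defa39 (AY761184) at 478, Defa38 (Gm14851) at 393 and Defa20 at 229. Of the 4946 genes with at least 50 UMIs in Mmp7 cells, those outside the 9 were ranked by the fold of their Mmp7 level over the next group. The first 10 were all alpha-defensins: Defa33, Defa23, Defa38, Defa29, Defa34, Defa39, Defa27, Defa41, Defa40 and Defa26. Their smallest folds ran from 215 (Defa33, over Zg16 cells) to 121 (Defa26, over Tph1 cells). On that scale Mptx2 had a smallest fold of 140, Defa42 133, Lyz1 77.6, Defa17 63.3, Itln1 26.0, Defa24 22.2, Ang4 4.22 and Mptx1 0.416. Lyz2 was at 0.583 UMIs per 10000 in Mmp7 cells, against 355 for Lyz1.

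Of 20 genes for Paneth regulators and niche factors, 8 stood above free RNA in Mmp7 cells. The list summed to 8.26 UMIs per 10000 there, against 10.2 in Zg16, 17.4 in Tph1 and 4.85 in Cck cells and 10.7 in free RNA. On this scale every other gene is lowered by the 3301 and 2950 UMIs per 10000 that the 8 genes and the other alpha-defensins take in Mmp7 cells. Cd24a, a surface marker of Paneth and other secretory cells, was at 4.58, with 2.42 in Zg16 and 12.5 in Tph1 cells. Xbp1, the unfolded-protein-response factor of secretory cells, was at 0.667 (1.96 in Zg16 cells), and the secretory fate factors Spdef and Atoh1 were at 0.490 and 0.403 (1.53 and 1.61 in Zg16 cells). Other genes of the list, chosen after their values were seen, were higher in Mmp7 than in Zg16 cells, as Cd24a was. Sox9, a factor that Paneth cells require, was at 0.504 against 0.0721 in Zg16 cells, and the niche ligand Wnt3 was at 0.218 against 0.0188, with 0.509 in Tph1 cells. The receptor Ephb3, which positions Paneth cells in the crypt, was at 0.181 against 0.0130, and Bhlha15, a factor of secretory cells, was at 0.163 against 0.0148. Goblet markers other than Zg16 summed to 453 UMIs per 10000 in Mmp7 cells (2 of 8 above free RNA), enterocyte markers to 12.7 (0 of 9) and immune markers to 1.14 (1 of 10). Cycling and stem markers summed to 1.3 in Mmp7 cells, with 6 of 7 above free RNA, against 0.343 and 0 of 7 in Zg16 cells. In Zg16 cells the goblet markers summed to 2326.

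The bulk table asked whether these genes differed between sorted CCK+ and CCK- cells. Of the 9 genes, 2 passed the test, both lower in CCK+: Mptx1 and Defa42. The test was limma on log2(normalized count + 1) with Benjamini-Hochberg adjustment over all 22042 genes, and 33.7% of all genes passed it, 14.1% as lower in CCK+. The other 7 genes had differences of -0.39 to 0.64 on the log2 scale, with adjusted p of 0.278 (Defa24) to 0.988 (Ang4). These intervals are wide: that of Lyz1 ran from -1.04 to 1.72 and that of Mptx2 from -1.77 to 0.99. In a bulk sample fewer cells of a type and less RNA per cell cannot be told apart. Of 24 other alpha-defensins, 1 was called higher in CCK+ (Defa33) and none lower, with a median difference of 0.45, against 0.12 over the 9 genes and 0.09 over all genes. In the same libraries 2 of 9 goblet genes were called lower (Clca1 and Muc2) and 1 higher (Agr2) in CCK+. Over all genes 14.1% were called lower and 19.6% higher. Of 9 enterocyte genes 7 were lower, and all 10 EEC genes were higher in CCK+. The summed level of the 9 genes was 0.0170 to 0.363% of a library's normalized counts in CCK+ and 0.0269 to 0.155% in CCK-.

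Mptx1 was listed at 0, 1.2 and 0 normalized counts in the CCK+ libraries of fasted mice A, B and F, and at 0, 2.1 and 0.9 in those of refed mice C, D and E. In CCK- it was at 11.1, 21.9 and 8.9 in the fasted and at 8.9, 3.7 and 1.5 in the refed mice. It was lower in CCK+ in 6 of 6 mice, although the lowest CCK- value (1.5) overlaps the highest CCK+ value (2.1). The difference was -2.43 ± 0.47 (SE; adjusted p = 0.00102, limma; n = 6 libraries each). It was -1.44 in the refed libraries alone, with adjusted p = 0.192.

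Defa42 was listed at 0 in all 3 CCK+ libraries of fasted mice, and at 32.4, 122 and 10.0 in those of refed mice C, D and E. In CCK- it was at 16.6, 9.7 and 59.1 in the fasted and at 19.97, 75.04 and 16.4 in the refed mice, so that only the CCK+ fasted group stands apart. Its near copy Defa43, with which it shares all of its windows, was at 2521, 270 and 340 in the same CCK+ fasted libraries, and assignment between the copies is uncertain. The fitted difference for Defa42 was -2.13 ± 0.61 (adjusted p = 0.0145, limma; no fold is given against libraries at 0). Among refed libraries alone it was 0.23, with adjusted p = 0.921, and the call was lost on leaving out CCK+ A, CCK+ E, CCK- F or CCK- D (adjusted p = 0.0510 to 0.0553, limma).

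**Figure D4:**
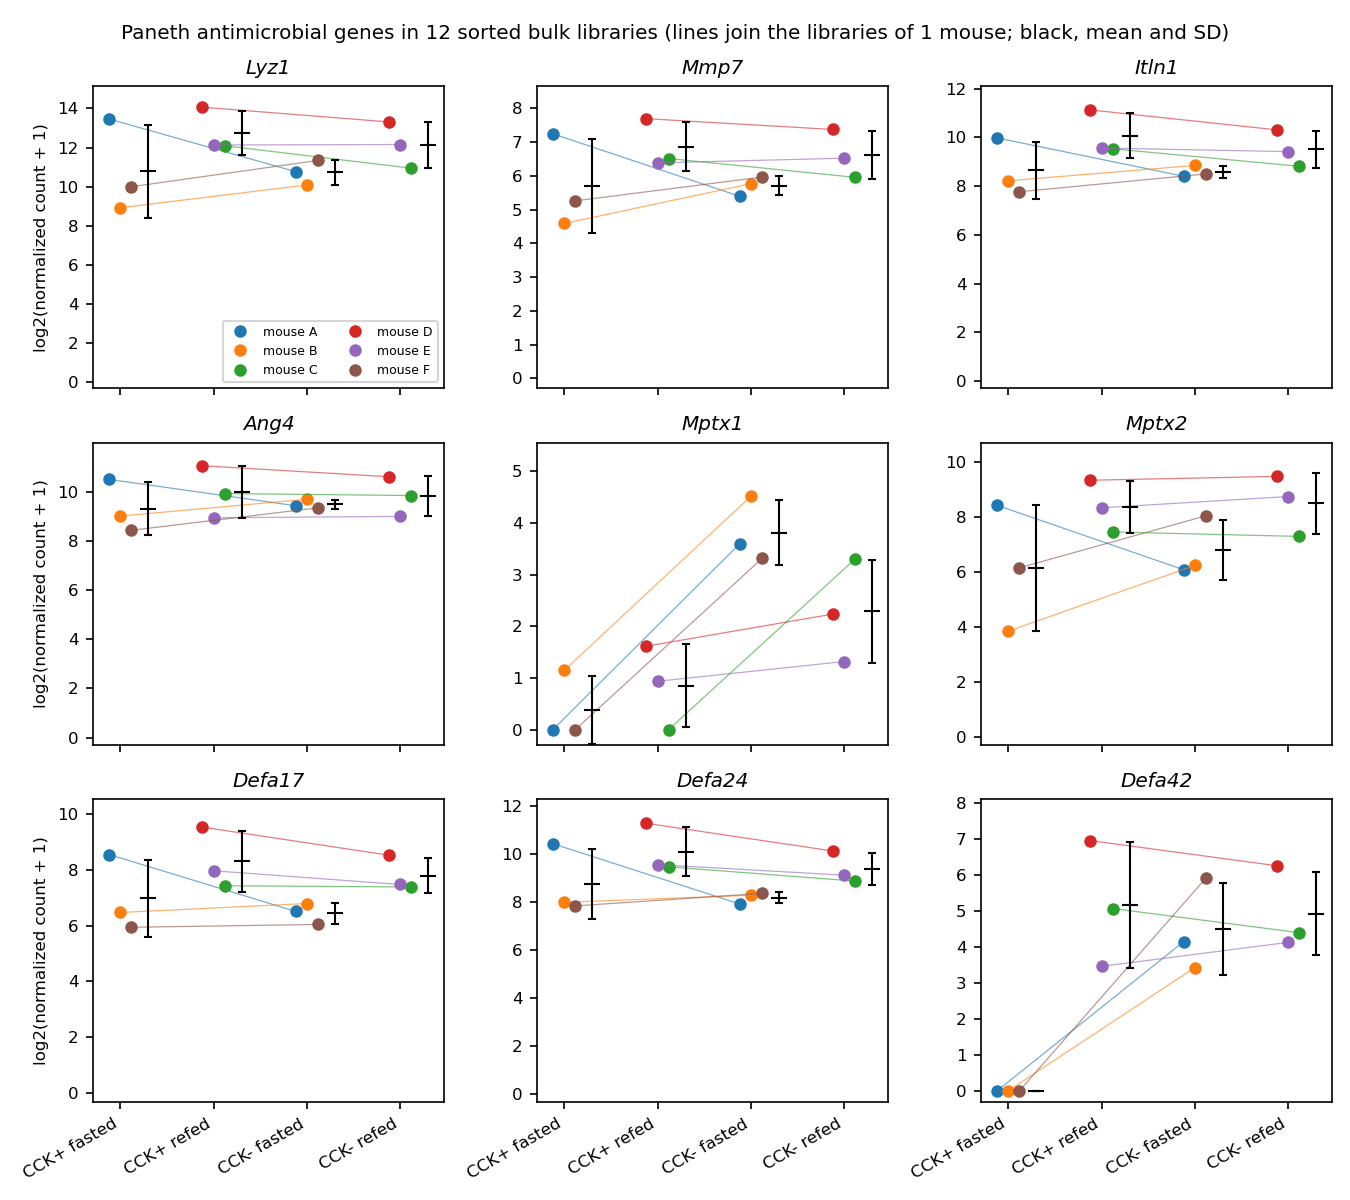
log2(normalized count + 1) of each gene in the 12 bulk libraries by group; lines join the CCK+ and CCK- library of 1 mouse, and black marks give the mean and SD of 3 libraries. Mptx1 is lower in CCK+ in all 6 mice, Defa42 is at 0 in the 3 CCK+ fasted libraries, and mouse D is highest in most panels.

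The remaining genes varied widely over the 12 libraries, which mix mice, feeding states and cell types. Lyz1 was at 11250, 484 and 1023 in the CCK+ libraries of fasted mice A, B and F and at 4359, 17093 and 4476 in those of refed mice C, D and E. The CCK- libraries of the same mice held 1742, 1088 and 2594 when fasted and 1970, 10138 and 4558 when refed. Lyz1 thus varied 35.3-fold over the 12 libraries, and Mptx2 varied 53.1-fold, from 13.4 (CCK+ B) to 710 (CCK- D). Mmp7 ranged from 23.1 to 206, Itln1 from 217 to 2238, Ang4 from 343 to 2120 and Defa17 from 60.3 to 732. Defa24, the alpha-defensin with the most droplet UMIs, was at 1368, 253 and 228 in CCK+ fasted, 703, 2468 and 750 in CCK+ refed, 241, 310 and 327 in CCK- fasted and 466, 1111 and 553 in CCK- refed libraries. Within a mouse, 7 of the 9 genes were higher in CCK+ than in CCK- in mouse A, 8 in C and 7 in D, but 3 in E and 0 in B and F. The CCK+ library of mouse A stood far above those of B and F, so that without it the Lyz1 difference between CCK+ and CCK- turned from 0.34 to -0.32. Lyz2 was higher in CCK+ (72.5 to 1209, against 4.9 to 58.4 in CCK-; log2 difference 4.33 ± 0.63, adjusted p = 9.01e-05, limma). So were 6 of 10 immune genes, where 19.6% of all genes were called higher. Named after their values were seen, they are Cd3e, Cd3g, Cd68, Cd8a, Gzma and Ptprc. In the droplet data Lyz2 was highest in Mmp7 cells, at 14.6 times free RNA. The part of immune cells in Lyz1 and Lyz2 was not tested.

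Refeeding was compared within each cell type. In CCK+ cells 1 of the 9 genes passed the test, Defa42, at a background of 2.55% of all genes and 1.31% as higher in refed. All 9 differences were above 0, with a median of 1.35 on the log2 scale (0.01 over all genes). The estimates were 2.23 ± 0.91 for Mptx2 (adjusted p = 0.228, limma), 1.97 ± 0.91 for Lyz1 (0.291), 1.42 ± 0.53 for Itln1 (0.188) and 1.35 ± 0.60 for Defa24 (0.270). Of the 9 genes only Defa42 had groups that do not overlap, as 19.4% of all genes did, with the fitted difference of 5.15 ± 0.87 (adjusted p = 0.00768) resting on its fasted libraries at 0. The call was lost without CCK+ fasted B (adjusted p = 0.0577) or CCK+ refed D (0.0762) and with the CCK+ libraries alone (0.125). The differences in these settings were 5.15, 4.26 and 5.15. Without CCK+ fasted A, Lyz1 passed, with a difference of 3.30 (adjusted p = 0.0491).

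In CCK- cells none of the 9 genes passed by limma, at a background of 1.23%, and 2 had an unadjusted p under 0.05 (Mptx1 and Defa17), as 2635 of the 22042 genes (12%) did. 8 of the 9 differences were above 0, with a median of 0.93 (0.00 over all genes). Defa17 was at 89.8, 109 and 64.7 in fasted and at 165, 365 and 176 in refed mice, groups that do not overlap, with a difference between 0.05 and 2.64 (95% interval; adjusted p = 0.395). The groups of Defa24 did not overlap either (1.18 ± 0.60, adjusted p = 0.469). Nor did those of Mptx1, in the other direction, with fasted values down to 8.93, refed values up to 8.88 and a difference of -1.52 ± 0.67 (adjusted p = 0.381). Groups did not overlap for 16.2% of all genes in this comparison. The refeeding differences of the 2 cell types were then compared directly. None of the 9 genes passed that test, at a background of 0.00454% (1 gene of 22042). The estimates were 4.73 ± 1.23 for Defa42 (adjusted p = 0.568) and 1.99 ± 0.95 for Mptx1 (0.793), and the other 7 lay between -0.03 and 0.56. The CCK+ and CCK- libraries share letters, so the parallel directions are not independent. Markers of other cell types moved with the feeding state as well: cycling and stem genes summed to 1942 to 3662 normalized counts in CCK+ fasted, 3648 to 4699 in CCK+ refed, 1253 to 1775 in CCK- fasted and 2484 to 3126 in CCK- refed libraries. EEC genes summed to 97962 to 221763 in CCK+ fasted and 245928 to 321114 in CCK+ refed libraries. Their part in the refeeding differences was not tested.

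**Figure D5:**
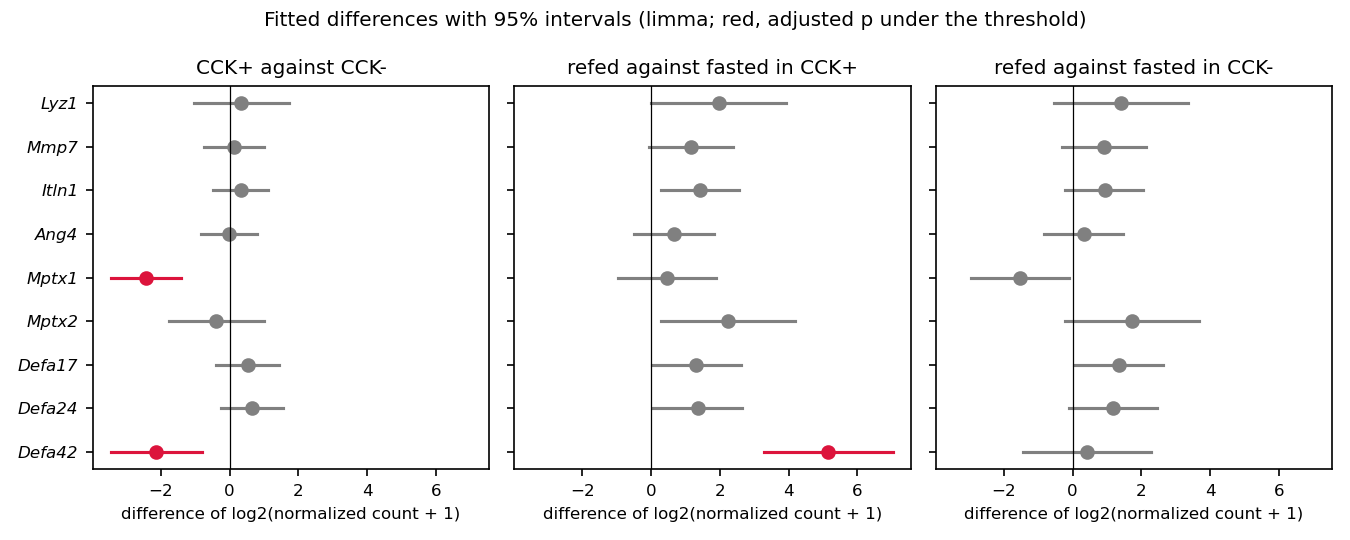
Fitted difference of log2(normalized count + 1) with its 95% interval for each gene in 3 comparisons of the bulk libraries; red marks an adjusted p under 0.05 (limma). Mptx1 and Defa42 are red in the first panel, at -2.43 and -2.13, Defa42 in the second, at 5.15, and no gene in the third.

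Across the 12 libraries most of the genes varied together. Pearson's r on the log2 scale was 0.98 between Lyz1 and Mmp7, 0.97 between Itln1 and Defa24 and 0.97 between Defa17 and Defa24. Mptx1 had r of -0.33 to 0.44 with the others and Defa42 had 0.37 to 0.62 with the genes other than Mptx1. These values describe 12 libraries of 6 mice that share states and scaling. Among 13517 genes with a mean of at least 10 normalized counts, those whose pattern was most like the mean of the 9 were Defa41 (r = 0.937), Defa39 (0.936), Defa36 (0.933), Defa43 (0.923) and Ddx20 (0.904), the last an RNA helicase. That mean includes Defa17, Defa24 and Defa42, which share 93.2, 57.1 and 100% of their windows with other genes. Likeness to other alpha-defensins may thus be partly built in by read assignment, which was not tested. Defa36 was at 78.9 to 2157 in the bulk libraries but held 7 UMIs in the Mmp7 cells. The other 24 alpha-defensins had median refeeding differences of 1.6 in CCK+ and 1.38 in CCK-, with none called in either. Of 39 other Paneth products, 4 were called higher in CCK+ (Clps, Defa33, Habp2 and Lyz2) and 3 lower (Reg3a, Reg3b and Reg3g, lectins that enterocytes also make). Of 20 regulators and niche factors, 9 were called higher and 4 lower. Over all genes 19.6% were called higher and 14.1% lower.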

How the data were processed

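Bulk libraries were quantified by the authors with Salmon 1.6.0 after Trim Galore 0.6.7, against GRCm39, summed per gene and divided by DESeq2 normalization factors; the deposited signal values are these normalized counts, not whole reads (at best 51.0 to 61.4% of low values were whole multiples of a unit), so depth in reads is unknown. Droplet counts are deposited UMI counts for all barcodes from Cell Ranger 2.0.1 (mm10), not normalized. The 9 genes and all lists were chosen with earlier results of these data known. Genes named from lists were at most 4 a list, by level summed over the groups compared, or all where 5 or fewer were called; others are marked as chosen after their values were seen.

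Bulk values were tested with limma 3.58.1 (R 4.3.3) on log2(normalized count + 1) over all 22042 genes, with 1 mean per group, a mean-variance trend and 8 residual degrees of freedom, and called at adjusted p under 0.05; fold changes on this scale understate changes of low genes. The fit was tested on simulated data. Sample titles call all bulk cells CCK+, so groups follow the cell-type labels. Nothing read here says outright that a shared letter is 1 mouse, and p-values measure the spread between these libraries. Droplet values were summed over cells (Python 3.11.15, scipy 1.17.1). No columns of the bulk table hold the authors' own comparisons. Windows of 31 bases came from GENCODE M21 transcripts, an older build than the one used for the bulk reads.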

Additional observations from a re-analysis of the deposited data

How the results depend on the processing

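Deviations from group means correlated at 0.0773 to 0.124 between libraries of the same letter and at most -0.0184 otherwise, a hint of pairing. With the letter as a replicate block, the count of called genes for CCK+ against CCK- stayed 2 (Mptx1 -2.43, adjusted p = 0.00297; Defa42 -2.13, adjusted p = 0.0039, limma). Over its alternatives, Mptx1 was lower in CCK+ in all 20 that tested it and passed in 19 (adjusted p = 0.000391 to 0.192, limma), whereas Defa42 passed in 15 of 21 for CCK+ against CCK- (0.0039 to 0.921) and in 15 of 19 for refeeding in CCK+ (0.00398 to 0.125). The count of called genes for CCK+ against CCK- was 1 at a pseudocount of 5 (Defa42 at -1.10), 1 for genes with a mean of at least 10 normalized counts, a filter that leaves out Mptx1, and 0 in refed libraries alone (Defa42 turned to 0.23), and 1 to 2 when 1 library was left out. For refeeding in CCK+, the count of 1 fell to 0 at a pseudocount of 5 or with CCK+ libraries alone and was 0 to 2 when 1 library was left out. The genes that were not called changed sign as follows, relative to a median over all genes of 0.35 with equal library sums and -0.14 with quantile normalization (0.09 as reported). Ang4, CCK+ against CCK-, was 0.39 with equal library sums, 0.24 with quantile normalization, 0.16 in refed libraries alone and 0.07, 0.21, 0.00, 0.25, 0.04 and 0.19 without CCK+ B, F, C, E, CCK- B and CCK- D. Mptx2 was 0.01 with equal sums and 0.19 without CCK+ B. Mmp7 was -0.33 with quantile normalization, -0.01 in fasted libraries alone, and -0.27, -0.09 and -0.05 without CCK+ A, CCK+ D and CCK- C. Without CCK+ A, Lyz1 was -0.32 and Itln1 -0.01. For refeeding in CCK-, Defa42 was -0.11 without CCK- B and -0.24 without CCK- D, and Ang4 was -0.07 without CCK- D. When 1 library was left out, differences between CCK+ and CCK- ran from -0.32 to 0.81 for Lyz1, -0.27 to 0.40 for Mmp7, -0.01 to 0.54 for Itln1, -0.31 to 0.25 for Ang4 and -0.96 to 0.19 for Mptx2, and refeeding differences in CCK- from -0.07 to 0.74 for Ang4 and -0.24 to 1.14 for Defa42. The cause was not tested.

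In the droplet data the summed level of the 8 genes other than Mmp7 in Mmp7 cells (3301 UMIs per 10000) and in Zg16 cells (149) was 3316 and 151 at more than 500 genes, 3175 and 145 at more than 1500 genes, 3382 and 151 under 5% mitochondrial UMIs, 3284 and 149 with no such limit, 2531 and 134 at 1 Mmp7 UMI, 3580 and 169 at 5, 3442 and 151 at 2 per 10000, 3405 and 148 with Zg16 and Cck at 250, 3123 and 142 at 1000, 3312 and 150 with Tph1 at 5, and 3274 and 147 at 20. With cells counted in every group they met, the levels were 1858 and 194. The Mmp7 group held 483 cells at 1 Mmp7 UMI and 1099 with cells in every group. Free RNA of 1 to 50 UMIs held 307 and of 10 to 100 UMIs 406 UMIs per 10000 of these genes.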
